A study of Drosophila melanogaster with 12 samples.

Results

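PSC binding sites near the distal ends of 3 autosomal arms were examined in Drosophila S2 cells, a line derived from embryos. A site was a ChIP-SEQ peak of PSC control replicate 1 whose midpoint lay on 2L or 3L at 3000000 or below, or on 3R at 25000000 or above, in the dm3 build. This gave 388 of the 4830 sites in that list, 144 on 2L, 135 on 3L and 109 on 3R, and the remaining 2681 sites on the same arms served for comparison. The study compared mitotic with control cells. Mitotic cells had been kept in colchicine, a drug that blocks spindle assembly, at 350 ng/ml (880 nM) for 15 h and were then FACS sorted with an antibody to H3S10p, a mark of condensed chromosomes. Control cells came from asynchronous cultures without colchicine and were sorted by H3 staining. The drug, the sorting antibody and mitosis itself thus changed at once between the groups and cannot be told apart. PSC was precipitated with a biotinylated antibody in 2 mitotic and 2 control replicates. PH was pulled down on streptavidin beads, with no ChIP antibody, from a stable S2 line (S2-PH) that expresses biotin-tagged PH and the biotin ligase BirA from metallothionein promoters, with 1 mitotic and 1 control sample. All cells were fixed with formaldehyde before staining and sorting.

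PSC and PH are subunits of PRC1, a Polycomb Group complex that binds PREs and compacts chromatin at repressed developmental genes. Drosophila chromosome ends carry arrays of HeT-A, TART and TAHRE retrotransposons in place of telomerase repeats, followed inward by subtelomeric satellite repeats and then by gene-bearing DNA. Such repeats give few uniquely mapping reads, and only uniquely mapping reads were kept, so the sites described here lie mainly in the gene-bearing DNA next to the telomere and not in the telomeric arrays themselves. Genes are not named, because the gene table used here belongs to another build than the peaks.

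The 6 peak lists differed widely in length. PSC mitotic replicate 1 held 578 peaks, PSC mitotic replicate 2 held 60 and PH mitotic held 149, against 4830, 3276 and 4629 in PSC control replicate 1, PSC control replicate 2 and PH control. Read numbers are not part of the lists, and a site without a mitotic peak is a site below that list's threshold, which does not show absence of binding. The authors' MACS score, a log-scaled p-value that grows with the strength of a peak, is compared only within a list. Scores of PSC control replicate 1 pile up at exactly 3100, the value of 156 of its peaks and of 15 of the 388 distal sites, so the order of sites near the top of the score range carries little information. Overlap means at least 1 shared bp, and where a site overlaps several peaks of a list its score there is that of the highest-scoring peak. A site that overlapped a mitotic peak is called kept. The 95% intervals of shares are exact binomial (Clopper-Pearson) intervals, which cover counting error within a list and not the variation between cultures.

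The number of sites per Mbp in the 3 distal windows lay within the range of the other stretches of their arms. Taking the end of the last peak in any list as the end of an arm, sites numbered 48.0 per Mbp in the 2L window against 37.9 on the rest of 2L, 45.0 against 39.2 on 3L, and 37.6 against 43.2 on 3R. Density was thus higher than on the rest of the arm at 2L and 3L and lower at 3R. Together the windows held 43.6 sites per Mbp, against 40.3 on the rest of the 3 arms. The median distance between neighboring sites was 10796.5 bp in the windows and 10336.8 bp elsewhere on the arms. Within the windows it was shortest on 2L, at 7451 bp, and longest on 3R, at 16785 bp. When each arm was divided into 3 Mbp steps from its distal end, 25 steps in all, 5 steps were denser than the 2L window, 6 were denser than the 3L window and 17 were denser than the 3R window. Short remainders at the proximal ends of 3L and 3R were left out of the steps. The last step on 2L spanned 1972304 bp and the first on 3R 2895135 bp.

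**Figure D1:**
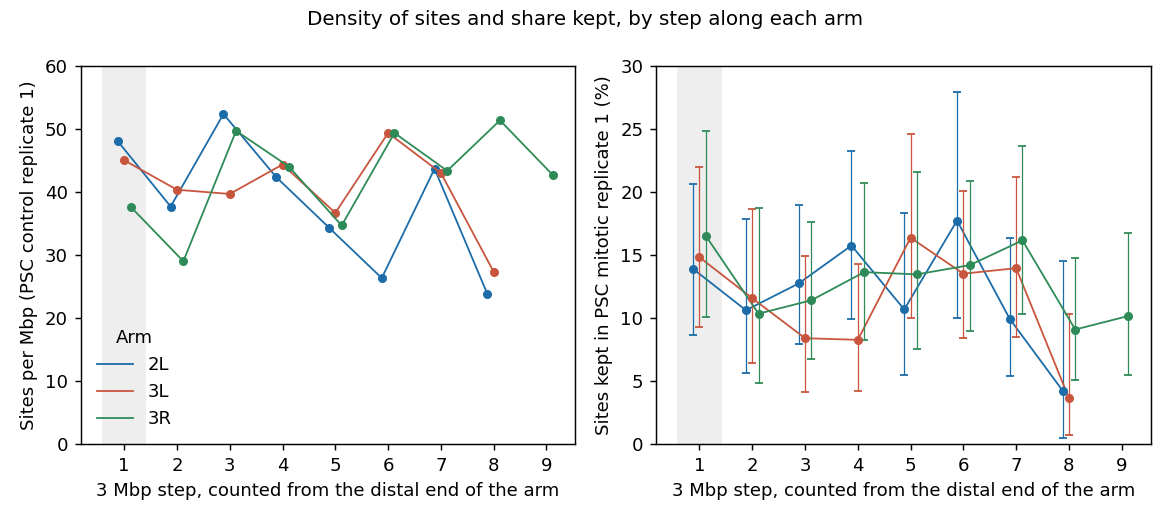
Sites of PSC control replicate 1 per Mbp (left) and the percentage of them kept in PSC mitotic replicate 1 (right), by 3 Mbp step counted from the distal end of 2L, 3L and 3R; error bars are exact 95% binomial intervals and the grey band marks the distal windows. The windows lie at 48.0, 45.0 and 37.6 sites per Mbp and at 13.9%, 14.8% and 16.5% kept, inside the range of the other steps in both panels.

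The outermost sites lay at unlike distances from the distal ends of 2L and 3L. On 3R the end of the arm was set by the last peak, so the distance to the assembled end is not known. The outermost site on 2L, from 4962 to 6602, scored 346.15 and was also present in PSC control replicate 2 (score 221.53) and PH control (score 1751.97) but in no mitotic list. On 3L the outermost site, from 127846 to 130088, scored 340.18 and had no peak in any of the other 5 lists. The outermost site on 3R, from 27893323 to 27895047, was the strongest of these in PSC control replicate 1 (score 1303.36) and the only 1 of the 3 that was kept. Its peak in PSC mitotic replicate 1 spanned 27893700 to 27894961 at a score of 281.45, and it had no peak in the other mitotic lists. At the inner edges, the last sites inside the windows started at 2998593 on 2L (score 484.71), 2885158 on 3L (score 693.22) and 25025303 on 3R (score 189.91), and the next sites outside started at 3028612 (score 855.41), 3034512 (score 543.45) and 24982859 (score 316.28). None of these 6 edge sites had a peak in a mitotic list.

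All 6 lists had more peaks per Mbp in the windows than on the rest of the arms. The ratio was 1.42 in PSC mitotic replicate 1, 1.25 in PSC mitotic replicate 2 and 1.46 in PH mitotic, against 1.08 in PSC control replicate 1, 1.16 in PSC control replicate 2 and 1.06 in PH control. The mean log2 ratio was 0.30 ± 0.19 (SD, n = 6 lists), with an exact sign-flip permutation p of 0.03125, the smallest that 6 lists allow, and an adjusted p of 0.0938 over the 3 measures tested (density, score and length; Benjamini-Hochberg, exact permutation, 2-sided). The excess therefore did not pass the threshold of 0.05 after adjustment. On the log2 scale the mean was 0.038 with windows of 5 Mbp and 0.060 without 3L, but 0.48 against the next 3 Mbp inward, 0.46 without 2L and 0.45 for the upper 50% of each list by score, and it stayed above 0 in all alternatives run. The lists rest on the same genome and call many of the same sites, so their ratios are not independent, as the sign-flip test takes them to be. Its p concerns the spread between lists and not whether other stretches of the same size would differ as much.

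**Figure D2:**
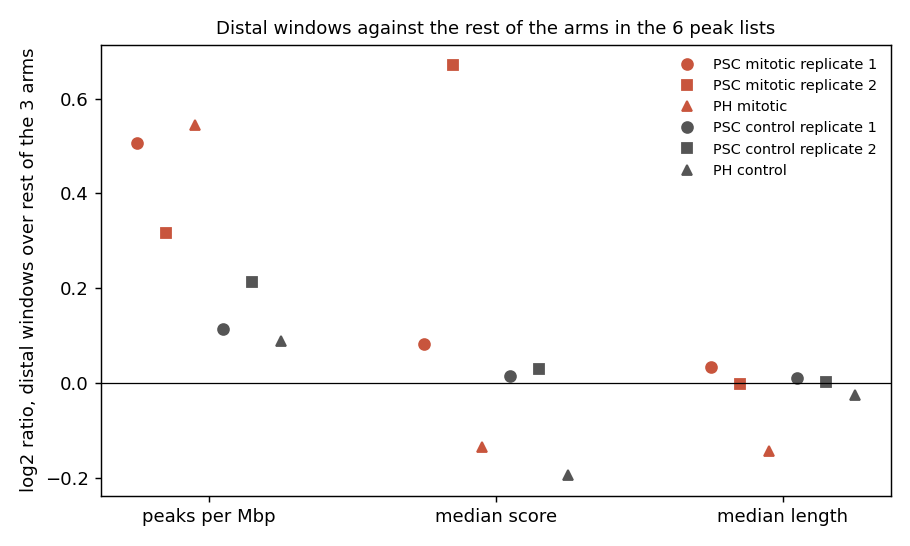
The log2 ratio of the distal windows over the rest of the 3 arms for peaks per Mbp, median score and median length, with 1 point per list; red points are mitotic lists, grey points are control lists, circles are PSC replicate 1, squares PSC replicate 2 and triangles PH. All 6 density ratios lie above 0, while score and length ratios lie on both sides of it.

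Median score and length gave no shift that passed the test. The median score was 119.76 in the windows and 113.03 on the rest of the arms in PSC mitotic replicate 1, 170.65 and 107.22 in PSC mitotic replicate 2, where the windows held only 5 peaks, and 83.78 and 91.92 in PH mitotic. In control cells it was 710.11 in the windows and 703.11 on the rest in PSC control replicate 1, 109.16 and 106.9 in PSC control replicate 2, and 703.89 and 805.12 in PH control. All 4 PSC lists thus had higher median scores in the windows, by a factor of 1.59 in PSC mitotic replicate 2 and of 1.01 to 1.06 in the others, and both PH lists had lower ones. The mean log2 ratio was 0.078 ± 0.31 for score and -0.020 ± 0.063 for length (SD, n = 6 lists; adjusted p of 0.781 for each, exact sign-flip permutation test, 2-sided). Without PSC mitotic replicate 2 the mean for score turned to -0.040. The 388 sites ranged from 160.75 to 3213.28 in score and from 1082 to 58598 bp in length, with a median length of 1737.5 bp, against 1725 bp on the rest of the arms.

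Most of the distal sites were found again in the other control lists. Of the 388, 348 (89.7%, 95% interval 86.2 to 92.5%) overlapped a PH control peak, against 91.2% of the 2681 other sites (95% interval 90.1 to 92.2%) and 91.2% of all sites of the list. PSC control replicate 2 had a peak at 277 of the 388 (71.4%, 95% interval 66.6 to 75.8%), against 69.1% of the other sites and 62.9% of all sites of the list. The difference between windows and rest was -1.51 percentage points for PH control (95% interval -5.08 to 1.37, Newcombe) and 2.31 for PSC control replicate 2 (95% interval -2.68 to 6.94), and both intervals include 0. Sites in the windows and their PH control peaks had a Spearman's rho of 0.848 between scores across the 348 shared sites, against 0.590 for PSC control replicate 2 across 277. These are descriptions across sites, which share a library and are not replicates. The 40 distal sites without a PH control peak were weak, with a median score of 239.14, against 791.53 for the 348 with a PH control peak. The strongest of them was the site on 3R from 25547321 to 25564206, which scored 782.69. Next came a pair on 3L, at 880426 to 883775 with 572.45 and at 1030412 to 1032813 with 537.78. None of these 3 had a peak in any other list, and none of the 40 was kept in a mitotic list. This was much the same on the rest of the arms. A PH control peak was present at 314 of the 315 sites kept there in PSC mitotic replicate 1, against 58 of 58 in the windows.

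PSC mitotic replicate 1 kept 58 of the 388 distal sites (14.9%, 95% interval 11.6 to 18.9%), against 315 of the 2681 other sites on the 3 arms (11.7%, 95% interval 10.6 to 13.0%) and 11.6% of all sites of the list. PSC mitotic replicate 2 kept 5 of the 388 (1.29%, 95% interval 0.420 to 2.98%), against 30 of the 2681 (1.12%) and 1.1% of all sites. PH mitotic overlapped 15 of the 388 (3.87%, 95% interval 2.18 to 6.30%), against 80 of the 2681 (2.98%) and 3.02% of all sites. The share was higher in the windows for each of the 3 lists, by 3.20, 0.170 and 0.882 percentage points. The interval of each difference included 0, at -0.248 to 7.26 points for PSC mitotic replicate 1, -0.707 to 1.89 for PSC mitotic replicate 2 and -0.788 to 3.36 for PH mitotic (95%, Newcombe). Over the 3 lists the mean difference was 1.42 ± 1.58 points (SD, n = 3), with p = 0.25 by an exact sign-flip permutation test (2-sided), the smallest p that 3 lists allow. A design of this size cannot pass the threshold. Without PSC mitotic replicate 1 the mean fell to 0.526 points. The direction held in every alternative run for PSC mitotic replicate 1, but for PSC mitotic replicate 2 it turned to -0.0045 points with windows of 2 Mbp, -0.179 with windows of 5 Mbp, -0.407 without 3L and -0.236 without 3R, and for PH mitotic to -0.131 without 3R. PSC lists and the PH list come from different cell lines, and the PH mitotic list was not filtered by false discovery rate.

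**Figure D3:**
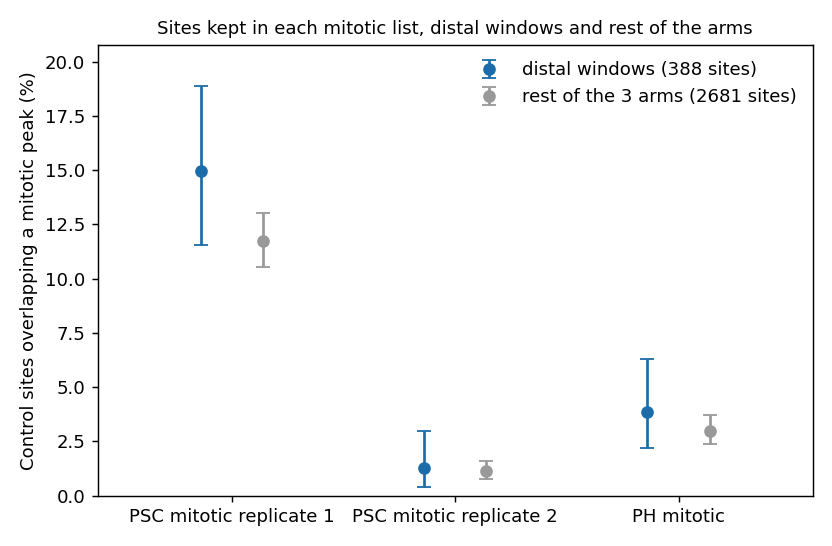
Percentage of sites of PSC control replicate 1 that overlap a peak of each mitotic list, for the 388 sites of the distal windows (blue) and the 2681 sites on the rest of 2L, 3L and 3R (grey); error bars are exact 95% binomial intervals. Each blue point lies above its grey point, at 14.9% and 11.7%, 1.29% and 1.12%, and 3.87% and 2.98%, and the intervals of each pair overlap.

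The windows gave different counts in the 3 mitotic lists, and the differences between windows were not tested. In PSC mitotic replicate 1 the kept share was 13.9% in the 2L window (20 of 144) against 12.2% on the rest of 2L, 14.8% in the 3L window (20 of 135) against 11.1%, and 16.5% in the 3R window (18 of 109) against 11.9%. The 2L window had no peak in PSC mitotic replicate 2, whereas 13 of the 757 sites on the rest of 2L were kept there. PH mitotic overlapped 2 sites in the 2L window (1.39%, against 3.43% on the rest of 2L), 6 in the 3L window (4.44% against 2.61%) and 7 in the 3R window (6.42% against 2.96%). The interval of each of these differences between a window and the rest of its arm included 0. Of the 25 steps of 3 Mbp, 8 had a higher kept share in PSC mitotic replicate 1 than the 2L window, 5 than the 3L window and 1 than the 3R window. The steps outside the windows ranged from 3.66% to 17.7%.

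Kept sites in the windows were mostly strong sites in control cells, as on the rest of the arms. The 58 sites kept in PSC mitotic replicate 1 had a median control score of 1865.68, and the 330 that were not kept had a median of 605.88. On the rest of the arms the medians were 1852.34 and 632.68. When the sites of the 3 arms were divided into score quintiles, the highest held 37 kept of 84 in the windows (44.0%) and 208 of 530 elsewhere (39.2%). In the next quintile 14 of 71 were kept in the windows (19.7%) and 79 of 543 elsewhere (14.5%), and in the middle quintile 5 of 75 (6.67%) and 17 of 539 (3.15%). The lowest quintile had 0 of 76 in the windows and 3 of 537 elsewhere. Weighting the rest of the arms to the quintiles of the windows gave 12.2% (47.3 sites) in PSC mitotic replicate 1, against the 14.9% (58 sites) seen in the windows. The same weighting gave 1.18% for PSC mitotic replicate 2, against 1.29%, and 3.18% for PH mitotic, against 3.87%. These weighted shares describe single lists and were not tested.

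**Figure D4:**
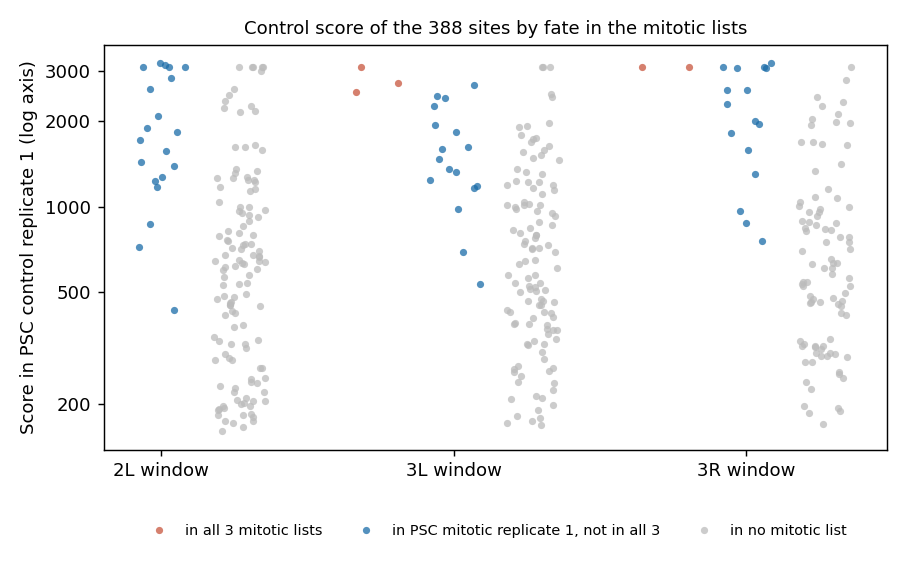
Score in PSC control replicate 1 (log axis) of each of the 388 distal sites, by window and by presence in the mitotic lists: all 3 lists (red), PSC mitotic replicate 1 but not all 3 (blue) or none (grey). The 5 red points lie at 2530.67 or above on 3L and 3R, while grey points reach the tied score of 3100 in every window.

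The distal sites found in the 3 mitotic lists were nested. All 5 sites kept in PSC mitotic replicate 2 and all 15 found in PH mitotic were also kept in PSC mitotic replicate 1, and the 5 sites of PSC mitotic replicate 2 were all among the 15 of PH mitotic. On the rest of the arms, 19 of the 30 sites of PSC mitotic replicate 2 were in all 3 lists. A further 10 were shared with PSC mitotic replicate 1 alone, and 1 was in PSC mitotic replicate 2 only. Of the 80 sites of PH mitotic there, 75 were also kept in PSC mitotic replicate 1. Sites in all 3 mitotic lists made up 1.29% of the distal sites and 0.709% of the other sites.

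Of the 5 sites found in all 3 mitotic lists, 3 were on 3L and 2 on 3R. The site on 3L from 2851185 to 2852842 had mitotic scores of 888.44 in PSC replicate 1, 223.83 in PSC replicate 2 and 309.52 in PH, against control scores of 2530.67, 319.82 and 2367.67. It was the strongest of the windows' 5 peaks in PSC mitotic replicate 2. The site on 3L from 505175 to 506936 had mitotic scores of 835.01, 177.77 and 278.9 in the same order, against control scores of 2730.55, 332.17 and 3101.15. Both are compact, at 1658 and 1762 bp, and their peaks in PSC mitotic replicate 1 covered most of that length, at 1424 and 1521 bp.

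The remaining 3 of these sites were longer in control cells. The site on 3L from 2530689 to 2534533 (3845 bp) had mitotic scores of 354.58, 117.4 and 118.69, against control scores of 3100, 477.6 and 2973.63, and its peak in PSC mitotic replicate 1 lay at its distal side, from 2530817 to 2532237. The site on 3R from 26884076 to 26888770 (4695 bp) had mitotic scores of 820.23, 170.65 and 364.05, against control scores of 3100, 516.87 and 3100, and its peak in PSC mitotic replicate 1 lay toward the telomere, from 26886424 to 26887876. The site on 3R from 27043626 to 27048575 (4950 bp) had mitotic scores of 3044.82, 138.3 and 346.83, against control scores of 3100, 381.89 and 3100. Its score of 3044.82 was the highest of the whole list of PSC mitotic replicate 1, whereas in PSC mitotic replicate 2 it was only the fourth of the 5 peaks in the windows.

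The other 10 sites shared by PSC mitotic replicate 1 and PH mitotic had PH mitotic scores between 58.15 and 172.49. The highest was at 3R from 25871226 to 25873195, the distal site with the highest control score (3213.28), which had a PSC mitotic replicate 1 score of 698.03. On 2L the corresponding site lay from 539945 to 541865, with scores of 390.01 in PSC mitotic replicate 1 and 86.63 in PH mitotic, against 3206.21, 650.25 and 3092.75 in the control lists. It had the highest control score and the highest mitotic score of the 2L window, yet no peak in PSC mitotic replicate 2. The next sites of 2L by mitotic score lay from 2883817 to 2887503, with 251.67 in PSC mitotic replicate 1 and 2600.88 in PSC control replicate 1, and from 1715144 to 1716742, with 247.3 and 1176.45. This last site had a control score well below those of the others. The other high control scores of 2L were at 478223 to 482579, with 3151.41, and at 869308 to 872524, with 3114.86, and both sites were kept in PSC mitotic replicate 1, at 110.34 and 165.35. On 3R the second control score was 3112.63, at 27429336 to 27437485, where PSC mitotic replicate 1 had 262.44. On 2L and 3R the order by control score thus differed from the order by mitotic score. On 3L the highest score in PSC mitotic replicate 1 was 888.44, at a site with 2530.67 in PSC control replicate 1. That lies below the 4 sites of the 3L window tied at 3100. Order near the top of the control scores carries little information, as stated above.

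Peaks at kept sites were narrower in mitotic cells, in the windows as on the rest of the arms. The highest-scoring peak in PSC mitotic replicate 1 was shorter than the control peak at 56 of the 58 distal sites. The medians were 1326.5 bp and 2097 bp, and the midpoint of the mitotic peak lay a median of 118 bp from that of the control site. On the rest of the arms the mitotic peak was shorter at 312 of 315 sites, with medians of 1296 bp and 2159 bp. In PH mitotic the peak was shorter at 15 of 15 distal sites and at 80 of 80 on the rest of the arms. PSC control replicate 2 also had shorter peaks, at 271 of its 277 distal sites (median 1212 bp) and at 1806 of 1852 on the rest. A shorter peak was thus found in a control list of fewer peaks as well. The part of list size in these lengths was not tested. The 2 distal sites with a longer peak in PSC mitotic replicate 1 are neighbors on 3R that share it as their highest-scoring mitotic peak.

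Many of the strongest sites near the telomeres had no mitotic peak. Of the 15 distal sites with the tied score of 3100, 6 were kept in PSC mitotic replicate 1 (40.0%). The share was 54 of 85 on the rest of the arms (63.5%) and 89 of 156 in the whole list (57.1%). All 5 distal sites above 3100 were kept, against 9 of 20 on the rest of the arms and 15 of 28 in the whole list. The tied sites and those above them thus differed from the rest in opposite directions, on few distal sites. By arm, 2 of 7 tied sites were kept on 2L, 1 of 4 on 3L and 3 of 4 on 3R. On 2L, where the other 5 were in none of the mitotic lists, they lay from 158024 to 162744, from 246280 to 253034, from 468111 to 473667, from 2160494 to 2163930 and from 2194873 to 2201053. All 5 had a peak in both other control lists. The site from 158024 to 162744 had a score of 259 in PSC control replicate 2 and of 3100 in PH control. On 3L the tied sites from 603480 to 662077, from 709558 to 713088 and from 2582455 to 2588190 had no mitotic peak, and on 3R the site from 25075529 to 25087638 had none. These remaining tied sites were named after their values were seen. In the highest decile of the whole list, 25 of 49 distal sites were kept (51.0%), against 131 of 290 on the rest of the arms (45.2%), so the 2 ways of taking the strongest sites order windows and rest differently.

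The windows held several very long sites. Of the 388, 8 were longer than 10000 bp (2.06%), against 10 of the 2681 on the rest of the arms (0.373%). This cutoff was chosen after the lengths had been seen, so no test is given. Each called peak counts as 1 site here, and 4 of the 8 adjoin each other on 3R. The longest site of the 2L window measured only 7885 bp, and the rest of 3L held a site of 70123 bp. The longest distal site was on 3L from 603480 to 662077, 58598 bp long with a score of 3100. PH control had peaks of 15567 bp (score 210.13) and 42500 bp (score 3100) there, and PSC control replicate 2 and the mitotic lists had none. It is also the strongest distal site, by score, without a peak in PSC control replicate 2.

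On 3R, 4 of the 8 long sites lay next to each other, over 86636 bp from 25547321 to 25633956, with gaps of 1082, 736 and 1726 bp between them. In distal direction their lengths were 16886, 21107, 33528 and 11571 bp, and their scores were 782.69, 530.46, 2012.8 and 3079.8. The first of these had no peak in any other list and is the strongest distal site without a PH control peak. The middle pair had PH control peaks with nearly the same edges, from 25565291 to 25586379 and from 25587125 to 25620312. PSC control replicate 2 had peaks only at the fourth, from 25624320 to 25626004 with a score of 141.9 and from 25628051 to 25629504 with 106.03. PSC mitotic replicate 1 had a peak of 39716 bp, from 25587127 to 25626842, with the low score of 57.2, which overlapped the third and the fourth site. A further peak of that list, from 25628091 to 25638999 (10909 bp, score 56.89), overlapped the fourth site, so both of these sites count as kept. The 33528 bp site was the only 1 of the 58 kept distal sites without a peak in PSC control replicate 2. Nothing was called in this block in PSC mitotic replicate 2 or PH mitotic.

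**Figure D5:**
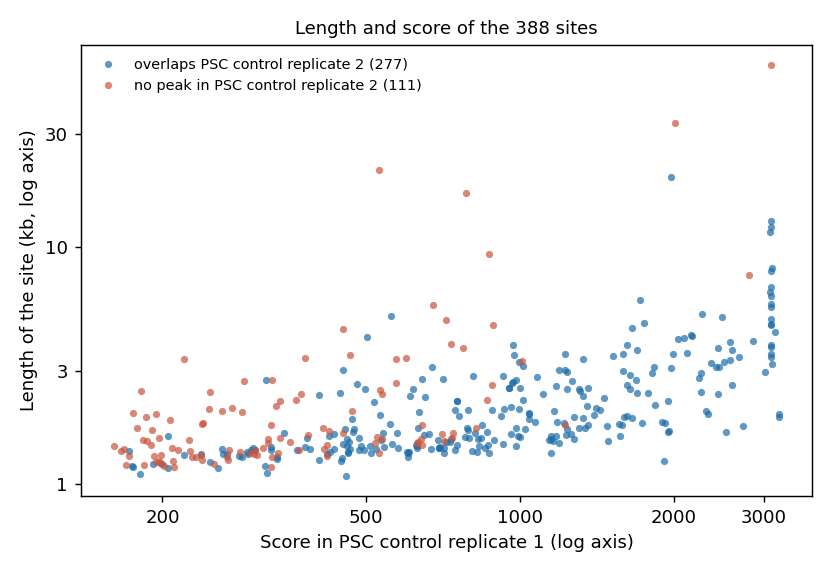
Length in kb and score in PSC control replicate 1 (both log axes) of the 388 distal sites; blue points overlap a peak of PSC control replicate 2 (277 sites) and red points do not (111 sites). Sites missing from PSC control replicate 2 are mostly short and weak, but the 4 longest red points measure 16886 to 58598 bp, against 9331 bp for the next.

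The other long sites on 3R behaved differently from this block. The site from 26622467 to 26635332 (12866 bp) had the tied score of 3100, and its mitotic peaks lay in its distal part. PSC mitotic replicate 1 had a peak from 26631683 to 26633232 (score 99.73) and another from 26633267 to 26634933 (score 166.21), and PH mitotic had a peak from 26631344 to 26634768 (score 96.53). The site from 26589385 to 26609045 (19661 bp, score 1977.01) and the site from 25075529 to 25087638 (12110 bp, score 3100) had peaks in both other control lists and none in mitosis.

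Kept and lost sites could lie side by side. Of the 385 pairs of neighboring sites in the windows, 95 held 1 site kept in PSC mitotic replicate 1 and 1 not kept. The median distance in these 95 pairs was 10824 bp. In 10 pairs both sites were kept, and in the others neither was. The kept site had the higher control score in 85 of the 95 pairs (89.5%), against 479 of 548 such pairs on the rest of the arms (87.4%). Of the 58 kept sites, 19 (32.8%) stood directly beside another kept site, against 78 of 315 (24.8%) on the rest of the arms, and the longest run of kept sites was 3 in both. The 19 include the pair on 3R that shares the mitotic peak of 39716 bp with the low score of 57.2. No allowance was made for the higher share of kept sites in the windows. In the tightest run of 5 sites on 2L, from 839939 to 856173, none was kept, although 1 of the 5 had a score of 1273.8. In the tightest run on 3L, from 1295068 to 1314347, 1 site was kept, in PSC mitotic replicate 1 only. In the tightest run on 3R, from 27038448 to 27057774, the kept site was the middle of the 5, which is the site with the highest mitotic score, and its 4 neighbors had control scores between 297.34 and 604.28.

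Nearly all mitotic peaks in the windows lay at control sites. PSC mitotic replicate 1 had 61 peaks there, of which 60 overlapped a site of PSC control replicate 1, PSC mitotic replicate 2 had 5 of 5 and PH mitotic had 15 of 16. The 2 exceptions were weak and both were on 3L, from 50380 to 51300 in PSC mitotic replicate 1 (score 51.24) and from 987703 to 988513 in PH mitotic (score 51.75). Neither overlapped a peak of any control list, nor each other. The study describes mitotic peaks over the whole genome as a subset of control peaks, so such overlap is not particular to the windows. Shares for the rest of the arms are not given here.

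The windows held a larger share of the arm peaks in mitotic than in control lists. They held 61 of 382 peaks on the 3 arms in PSC mitotic replicate 1 (16.0%, 95% interval 12.4 to 20.0%), 5 of 35 in PSC mitotic replicate 2 (14.3%, 95% interval 4.81 to 30.3%) and 16 of 98 in PH mitotic (16.3%, 95% interval 9.63 to 25.2%). In control cells they held 388 of 3069 in PSC control replicate 1 (12.6%, 95% interval 11.5 to 13.9%), 308 of 2294 in PSC control replicate 2 (13.4%, 95% interval 12.1 to 14.9%) and 364 of 2923 in PH control (12.5%, 95% interval 11.3 to 13.7%). The interval of each mitotic list included all 3 control shares. The shares themselves did not overlap between the groups, but that of PSC mitotic replicate 2 rests on only 5 peaks. The means were 15.5 ± 1.09% in mitotic lists and 12.8 ± 0.516% in control lists (SD, n = 3 each). The difference was 2.69 percentage points (exact permutation test, 2-sided p = 0.1, the smallest p that 3 lists against 3 allow). The design thus cannot reach 0.05. The size of the difference depended on the arms and the threshold. It was 8.0 points without 2L, -0.0936 points without 3L and 0.164 points without 3R, and it was 0.584 points with windows of 5 Mbp, 6.28 points for the upper 50% of each list by score and 5.42 points at scores of at least 100. On 3R alone the mitotic shares were 12.5%, 18.2% and 17.9%, against 9.17%, 9.82% and 8.53% in the control lists. On 2L alone they were 18.4%, 0% and 6.67%, against 16.0%, 17.0% and 16.0%.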

How the data were processed

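Peak lists of 6 ChIP-SEQ samples were used. Reads of 36 bp had been mapped to dm3 by the authors (Bowtie 1.1.2), who kept unique alignments and ran MACS with a p-value cutoff of 1e-05, a bandwidth of 200, a fragment size of 36 and a genome size of 120000000. The submitters' processing notes list MACS 1.0.1. A 5% limit on the false discovery rate was then applied to all lists but mitotic PH, and U and Uextra were dropped. The deposited score of each peak was read as the log10 of the p-value multiplied by 10, with the sign turned, since scores in a pair of lists go down to exactly 50, which is the cutoff on that scale. They deposited 1 list per sample. How the input samples entered peak calling is not given in the sources used here, and they were not analysed here. The study describes the PSC replicates as biological, and each PH condition has 1 sample.

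Sites, windows and overlaps were computed with Python 3.11.15, numpy 2.4.6 and scipy 1.17.1 and gave the same counts as bedtools 2.31.1 in 30 of 30 ordered pairs of lists. The code was tested on simulated data. Starts were made 1-based. Lists, not peaks, were the units of the exact permutation tests. Sites were named by rule: those in all 3 mitotic lists and, per arm, the 3 highest by control score and by mitotic score (ties in order of position), the highest without a mitotic peak, the outermost, those at the inner edge and the tightest run of 5, then the 3 longest, the 3 strongest without PH control, and mitotic peaks without a control site. Other sites, such as the rest of the tied and of the long sites, were chosen after their values were seen. The members and lists were chosen with earlier results of these data known. No genome or annotation of dm3 was used here, so no sequence or gene is given.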

Additional observations from a re-analysis of the deposited data

Results flagged for a closer look

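The median score of peaks in the distal windows, relative to the rest of the arms, lay above 1 in all 4 PSC lists and below 1 in both PH lists. The mean log2 ratio was 0.20 over the PSC lists and -0.16 over the PH lists, a difference of 0.36 (exact permutation test of 4 lists against 2, 2-sided p = 0.267, with 0.0667 the smallest p possible). This test cannot reach 0.05 with 6 lists, and the 4 PSC ratios all lay above both PH ratios. The PSC mean includes PSC mitotic replicate 2, which had only 5 peaks in the windows. In PSC control replicate 1 the ratio of 1.01 changed side with the settings. It was 0.953 with windows of 2 Mbp, 0.991 against the next 3 Mbp inward and 0.997 without 3L. With windows of 5 Mbp it was 1.02, without 2L 1.04, without 3R 1.02 and for the upper 50% by score 1.02.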

How the results depend on the processing

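Across 145 comparisons with alternative settings, 126 kept the direction, and where tested the side of the threshold, or stayed within the spread of the main value. The density ratio of 1.08 in PSC control replicate 1 moved to 0.991 with windows of 5 Mbp, 1.22 against the next 3 Mbp inward, 1.00 without 2L and 1.21 without 3R. With PSC control replicate 2 used in place of that list, the ratio was 1.16. The score ratio of 1.01 moved to 0.874 with PH control as the list of sites. The length ratio of 1.01 moved to 0.994 with windows of 5 Mbp, 1.03 against the next 3 Mbp inward, 1.04 without 2L, 0.991 without 3R, 1.08 for the upper 50% of peaks by score and 0.983 with PH control as the list of sites. With the upper 50% by score, the difference in overlap with PH control was -5.15 points. Over the 6 lists, the mean log2 score ratio turned to -0.014 with windows of 2 Mbp and ranged from -0.040 to 0.13 when each list was left out, and the mean log2 length ratio turned to 0.025 without 2L and 0.034 for the upper 50% by score, and ranged from -0.031 to 0.0042 when each list was left out. The share of arm peaks in the windows, mitotic minus control, turned to -0.0936 points without 3L. The cause of these shifts was not tested. Paired within protein and replicate number (replicate block), this difference of 2.69 points had an exact sign-flip permutation p of 0.25, the smallest possible, and the block changed no call. The numbers are labels only and were not shown to pair cultures. Leaving out each list was added after the data were seen.

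The lists limit what can be read from them. PSC mitotic replicate 2 had 5 peaks in the windows, the lists hold no depths, and scores at the tie of 3100 cannot be ranked. A site counted as lost is a site without a called peak.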
